A study of Oryctolagus cuniculus with 3 samples.

Results

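Integrins are cell surface receptors made of an alpha and a beta subunit, and laminins are basement membrane proteins made of an alpha, a beta and a gamma chain. Here the genes of both families were followed in rabbit cumulus-oocyte complexes, which hold the oocyte and its surrounding somatic cells. Members were taken by name: every row of the deposited gene table whose gene name is ITGA, ITGB, LAMA, LAMB or LAMC followed by the subunit's number or letter. This gave 41 of 39681 loci, under 32 symbols. Of these, 32 rows carry a RefSeq messenger RNA, 1 for each symbol, out of 20008 such coding rows. They comprise 23 integrin subunits and 9 laminin chains. The other 9 rows are assembled loci without a RefSeq messenger RNA that took the name of the gene they lie in or beside.

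The study housed 150 female IRA rabbits, aged 35 days at the start, for 4 weeks at different concentrations of ammonia in the air. The control group, CG, was kept under 3 ppm NH3, the low ammonia group, LAC, at 10 ppm and the high ammonia group, HAC, at 30 ppm. No genetic alteration is given for any group, and the sources used here do not give the number of animals behind a library. Total RNA depleted of ribosomal RNA was sequenced, with 1 library per group. The values therefore have no replicate check, no test or p-value was computed, and every interval below is an exact binomial 95% interval that covers counting error only.

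Integrins bind the matrix outside the cell and are tied inside to actin through talin, kindlin and other focal adhesion proteins. The beta1 subunit pairs with many alpha subunits, among them those for collagen, laminin and fibronectin, while alphaV pairs with several beta subunits. Other combinations, such as those with the beta2 subunit, belong to leukocytes. Laminins polymerise through their short arms into the sheet that underlies epithelia, and the basal lamina around the ovarian follicle contains them. Granulosa cells and oocytes are both known to carry integrins at their surface.

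Estimated counts summed to 78461882 in CG and 68523767 in LAC, and the coding member rows held 0.186% and 0.195% of them. The LAC and HAC files hold an identical gene table, with 0 differing cells, so the gene values below compare CG with 1 other library, called LAC after the table's own heading. The file summaries leave that label uncertain. The highest gene FPKM of the shared table, 39492, is the one stated in the summary of the HAC file, and the LAC summary states 86394. Long non-coding coverage, a signal of read depth, gave the shared table's counts within 5% at 93.9% of 8974 1-transcript loci for LAC. For HAC it did so at 4.04% of 9183. The shared table and the long non-coding values headed LAC thus go together, and what stays uncertain is the heading of both. The files give the spliced share of valid reads as 22.01% for CG, 16.23% for LAC and 19.89% for HAC, but the valid read numbers of the LAC and HAC files are exchanged between their summaries, so which of these values goes with the shared table is as uncertain as its label. Rows without a RefSeq messenger RNA held 24.6% and 34.2% of the counts. The labelled material was checked against its markers: all 15 oocyte markers and all 10 matched granulosa and cumulus markers were detected in both libraries. The 15 oocyte markers were all lower in LAC, with a median log2 difference of -2.13 and a summed level of 4711 CPM in CG against 929 CPM in LAC. None of the 10 granulosa and cumulus markers passed the size rule given next, and their summed level was 14139 and 13834 CPM. In such mixed material, fewer cells of a type and less RNA per cell cannot be told apart.

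Levels are given in CPM, estimated counts relative to library size scaled with trimmed mean of M values (TMM) factors. A gene is called higher or lower in LAC when log2(CPM + 1) differs by at least 1 and the higher library has at least 10 estimated counts, a rule of size and not a test. Folds are ratios of CPM without a pseudocount. Of the 32 coding rows, 30 reached the minimum of 10 counts. ITGB6 had no count in either library, and ITGAX had 0 in CG and 7 in LAC. Of the 30, 4 were higher in LAC (ITGA1, ITGA4, ITGB2 and ITGB8), 4 were lower (ITGA2, ITGAL, ITGB3 and LAMA3) and 22 did not pass. Among all 29030 loci with enough counts 4.23% were higher and 8.51% lower, and among the 15009 coding rows 1.89% were higher and 11.0% lower. Nearest to the limit were ITGA1, at 1.01, ITGAL, at -1.02, and ITGB3, at -1.07, which passed, and LAMC3, at 0.96, and LAMA4, at 0.93, which did not.

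In the main scaling the members were centred near 0. The median difference over the 27 coding members that averaged 0.5 CPM or more was 0.04, where it was 0.01 over all loci and -0.15 over coding rows of that level. The median was 0.03 over 19 integrin subunits and 0.08 over 8 laminin chains. With the deposited FPKM in place of CPM the median over members was -0.02, and with TMM factors taken from coding rows alone 0.23, so it depends on the scaling. Those factors moved the median of all tested loci up by 0.12, and the calls over all loci then split into 1842 higher and 2046 lower in place of 1227 and 2470, 47.4% in place of 33.2% of calls being higher. Under that scaling ITGB3 and ITGAL no longer passed, and LAMA4 and LAMC3 passed as higher.

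**Figure D1:**
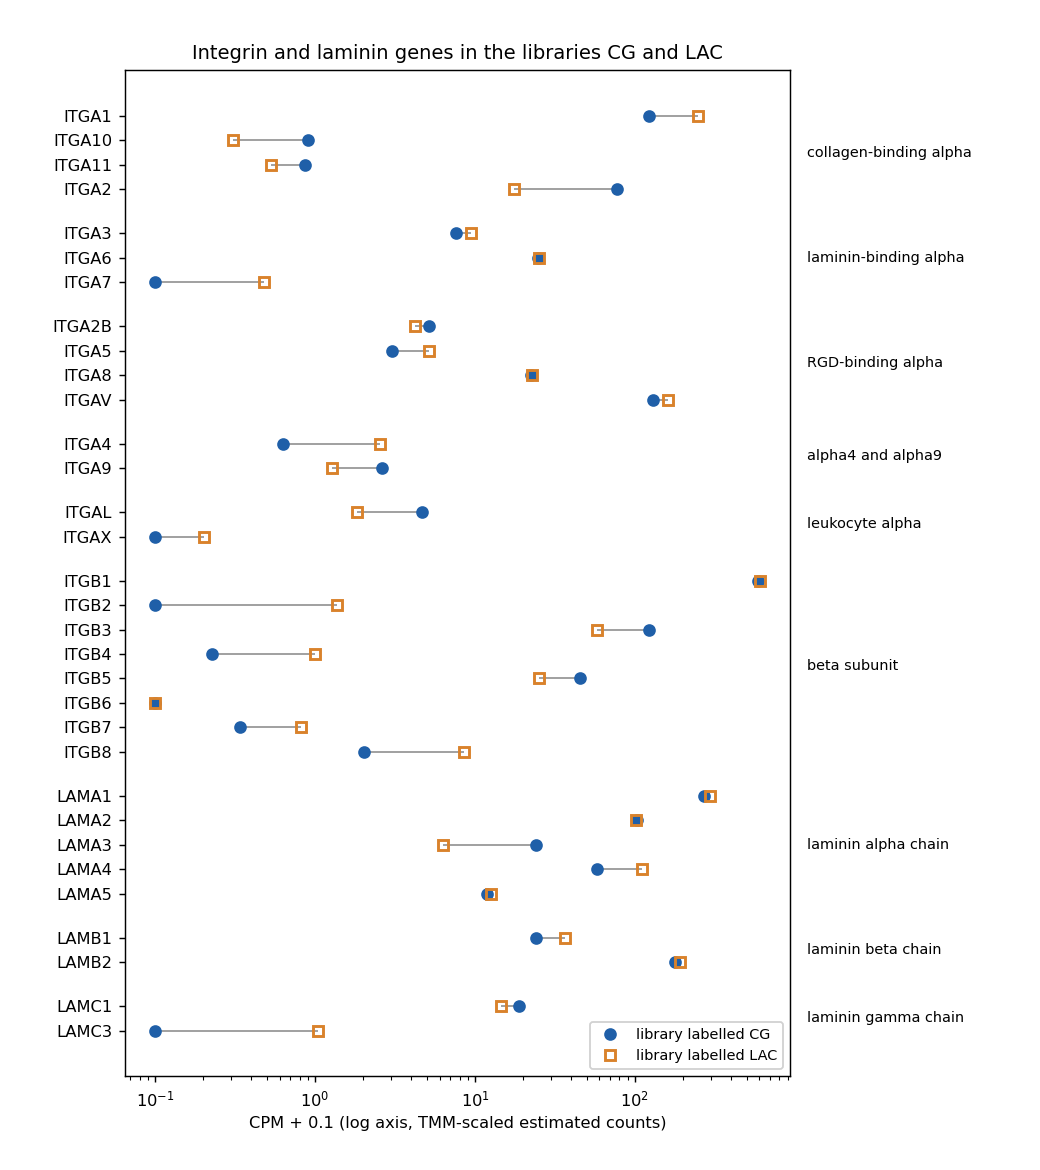
Level of each of the 32 coding members in the library labelled CG (circles) and the library labelled LAC (open squares), as CPM + 0.1 on a log axis, with members grouped by role. The points of ITGB1, at 589 and 606 CPM, nearly coincide, and ITGA2 and LAMA3 show wide gaps to the left in LAC; levels are per gene and not per length, so only the 2 points of a row should be compared.

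Levels of different genes could not be compared per length. The deposited gene FPKM set against CPM implies a length of 0.266 kb for LAMA2, far short of its coding sequence, and 12.03 kb for ITGB3 in CG. Values are therefore compared within a gene between libraries, and shares of counts within a group of subunits are read only for their change.

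The collagen-binding alpha subunits differed in opposite directions. ITGA1, the alpha1 subunit, which favours collagen IV of basement membranes (OryCun2.0, NC_013679.1, 68826975 to 69006091, plus strand), had 123 CPM in CG against 247 CPM in LAC, 2.02-fold higher (1.95 to 2.09). ITGA2, the alpha2 subunit, which favours fibrillar collagen (69030882 to 69137455 on the same sequence and strand), had 77.0 CPM in CG against 17.6 CPM in LAC, 4.39-fold lower (4.02 to 4.80). The genes are neighbours, with 24790 bases between the end of ITGA1 and the start of ITGA2. Of all counts in collagen-binding alpha subunits, ITGA1 held 60.9% in CG (59.8 to 62.0) and 93.1% in LAC (92.6 to 93.7), and ITGA2 held 38.3% (37.2 to 39.4) and 6.62% (6.11 to 7.15). The call of ITGA1 was lost with median-of-ratios factors, the library total, a pseudocount of 5 or the deposited FPKM, while ITGA2 passed under all 6 alternatives of scaling, pseudocount and unit. ITGA10 and ITGA11, receptors known from cartilage and fibroblasts, were low: ITGA10 had 0.808 CPM in CG against 0.206 CPM in LAC, and ITGA11 had 0.770 and 0.427 CPM. Neither passed the rule.

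The rows next to and inside these genes were read for the same libraries. PELO, a ribosome rescue factor whose gene lies inside ITGA1 on the same strand, had 51.4 CPM in CG against 59.4 CPM in LAC and did not pass. An assembled row of 1933 bases inside ITGA1 on the opposite strand had 1.503 and 3.755 CPM. Beyond ITGA2, an assembled row that begins 1663 bases after its end had 2.89 and 3.71 CPM, and MOCS2, a molybdenum cofactor gene that follows, had 33.0 and 28.8 CPM. The low level of ITGA2 in LAC was thus not shared by these rows after it. The sources used here do not say whether counting used strand, so reads of overlapping genes cannot be told apart by strand. Of the 9 assembled rows under member names, 8 reached 10 counts and none passed the rule, with differences from -0.99 to 0.93, and the remaining row, in ITGA8, had 0 and 3 counts.

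Among the laminin-binding alpha subunits none passed the rule. ITGA6, the alpha6 subunit of the laminin receptors alpha6 beta1 and alpha6 beta4, had 24.5 CPM in CG against 25.0 CPM in LAC, a ratio of 1.02 (0.929 to 1.12). ITGA3, the alpha3 subunit, had 7.55 and 9.34 CPM. ITGA7, the muscle subunit alpha7, had no count in CG and 26 in LAC, at least 5.05-fold higher against a floor of 6 estimated counts (3 reads) per library and with an exact 95% lower limit of 3.55, but at 0.383 CPM its log2 difference was 0.47. ITGA6 stayed within 0.20 of no difference on the log2 scale under every alternative tried.

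The subunits that bind the sequence arginine-glycine-aspartate also stayed inside the rule. ITGAV, the alphaV subunit, had 129 CPM in CG against 161 CPM in LAC, a ratio of 1.25 (1.20 to 1.29). ITGA8, a subunit best known from kidney development, had 22.2 and 22.5 CPM, a ratio of 1.01 (0.919 to 1.12). ITGA5, the fibronectin receptor subunit, had 2.92 and 5.04 CPM, a ratio of 1.73 (1.36 to 2.21), and ITGA2B, the platelet subunit alphaIIb, had 5.08 and 4.14 CPM. The intervals of ITGAV and ITGA5 lie above 1 but cover counting error alone. Platelet markers were at the limit of detection beside them: 4 of 8 were matched, PPBP and TUBB1 were at 0 in CG, GP1BA was at 0 in LAC, and the 4 together had 0.265 CPM in CG against 0.618 CPM in LAC.

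The related subunits alpha4 and alpha9 lay on opposite sides of 0. ITGA4, a receptor subunit for fibronectin and VCAM1 that leukocytes and other cells carry (NC_013675.1, 121433522 to 121544431), had 0.530 CPM in CG against 2.44 CPM in LAC, 4.61-fold higher (2.83 to 7.83), from 42 and 166 estimated counts. An assembled row under the gene name LOC100357477 lies inside ITGA4 on the same strand and had 876 and 587 estimated counts, more than ITGA4 itself, and reads of the 2 rows cannot be told apart where they overlap. ITGA9, a tenascin receptor subunit, had 2.54 and 1.18 CPM and did not pass. Another 2 rows outside the name rule are described as integrin alpha-9 or like it, and summed with them ITGA9 had 7.31 CPM in CG against 4.83 CPM in LAC, 1.51-fold lower (1.25 to 1.85). This sum was added after the values were seen.

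The leukocyte subunits were low throughout, and the alpha and beta partners differed. ITGB2, the common beta subunit of leukocyte integrins (NW_003160089.1, 2245 to 21897), had no count in CG and 87 in LAC, 1.28 CPM, which is at least 16.9-fold higher against the floor of 6, with an exact 95% lower limit of 13.2. ITGAL, the alphaL subunit, which pairs with beta2 on lymphocytes and other leukocytes (NW_003159378.1, 1688911 to 1729305), had 4.53 CPM in CG against 1.74 CPM in LAC, 2.61-fold lower (1.93 to 3.56). CG thus had ITGAL counts with none for its partner. ITGAX, at 0 and 7 counts, overlaps the row of ITGAD, which had none, and the RefSeq names gave ITGAM to 2 rows, with 0 and 19 counts in the coding row and 26 and 46 in the other. The macrophage and monocyte markers, 10 of 12 matched, had summed levels of 56.7 CPM in CG against 30.6 CPM in LAC with TYROBP at 0 in CG, and among the 9 with enough counts 8 lay above 0, MRC1 and CD163 past the rule, and MSR1 was lower. Without MSR1 the sum was 9.41 CPM in CG against 22.4 CPM in LAC, so that this marker alone set the direction of the sum. The lymphocyte markers, 12 of 13 matched, had 22.4 and 8.66 CPM, with MS4A1 and CD3G lower of 8 with enough counts and CD3E, CD79B, CD8B and NKG7 among those at 0 in CG. The 10 lymphocyte markers other than MS4A1 and CD3G summed to 3.32 CPM in CG against 5.10 CPM in LAC. MSR1, MS4A1 and CD3G were set aside because they were lower, which could only move each sum toward LAC. The part of these cells in the values of ITGB2, ITGAL and ITGA4 was not tested. The calls of ITGA4 and ITGB2 were lost with a pseudocount of 5, that of ITGB2 also with FPKM, and that of ITGAL with a pseudocount of 5, FPKM or the coding-row scaling.

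Among the beta subunits ITGB3 was lower and ITGB8 and ITGB2 were higher in LAC. ITGB1, the beta1 subunit shared by most of the alpha subunits above, had 589 CPM in CG against 606 CPM in LAC, a ratio of 1.03 (1.01 to 1.05). ITGB3, the beta3 subunit, which pairs with alphaV and alphaIIb (NC_013687.1, 46700634 to 46762249), had 123 CPM in CG against 57.8 CPM in LAC, 2.12-fold lower (2.01 to 2.24). ITGB8, the beta8 subunit, which pairs with alphaV and activates latent TGF-beta (NC_013678.1, 5539898 to 5630437), had 1.93 CPM in CG against 8.38 CPM in LAC, 4.34-fold higher (3.36 to 5.66), a call lost with a pseudocount of 5, where the difference was 0.95. ITGB5, another partner of alphaV, had 45.0 and 25.2 CPM, 1.79-fold lower (1.65 to 1.94), and did not pass the rule. The 3 detected partners that alphaV shares with few other subunits therefore differed among themselves, ITGB3 and ITGB5 below CG and ITGB8 above it, at a ratio of 1.25 for ITGAV. These signs were the same under every scaling tried.

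As shares of all beta subunit counts, ITGB1 held 77.6% in CG (77.1 to 78.1) and 86.5% in LAC (86.1 to 87.0), and ITGB3 held 16.1% (15.7 to 16.6) and 8.25% (7.91 to 8.61). With ITGB1 set aside, ITGB8 held 1.14% in CG (0.898 to 1.42) and 8.89% in LAC (7.93 to 9.93), while ITGB5 held 26.5% (25.4 to 27.6) and 26.7% (25.2 to 28.3). The intervals of the ITGB5 shares overlap, while those of ITGB8 and of ITGB3, which held 72.2% (71.1 to 73.2) and 61.3% (59.6 to 63.0), do not. ITGB4, the hemidesmosome subunit, had 0.126 and 0.898 CPM, and ITGB7, a leukocyte subunit, had 0.240 and 0.722 CPM, both from at most 61 counts in a library and not past the rule. ITGAE, the other alpha partner of beta7, appears in the table in a row fused with NCBP3, at 56.9 and 34.6 CPM. The rows beside ITGB3 were lower as well. An assembled row on the same strand, 360 bases past its end, had 5.52 CPM in CG against 2.28 CPM in LAC, a difference of -0.99, and LOC100345879, on the opposite strand 1149 bases before its start, had 35.0 and 12.03 CPM and passed the rule as lower.

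**Figure D2:**
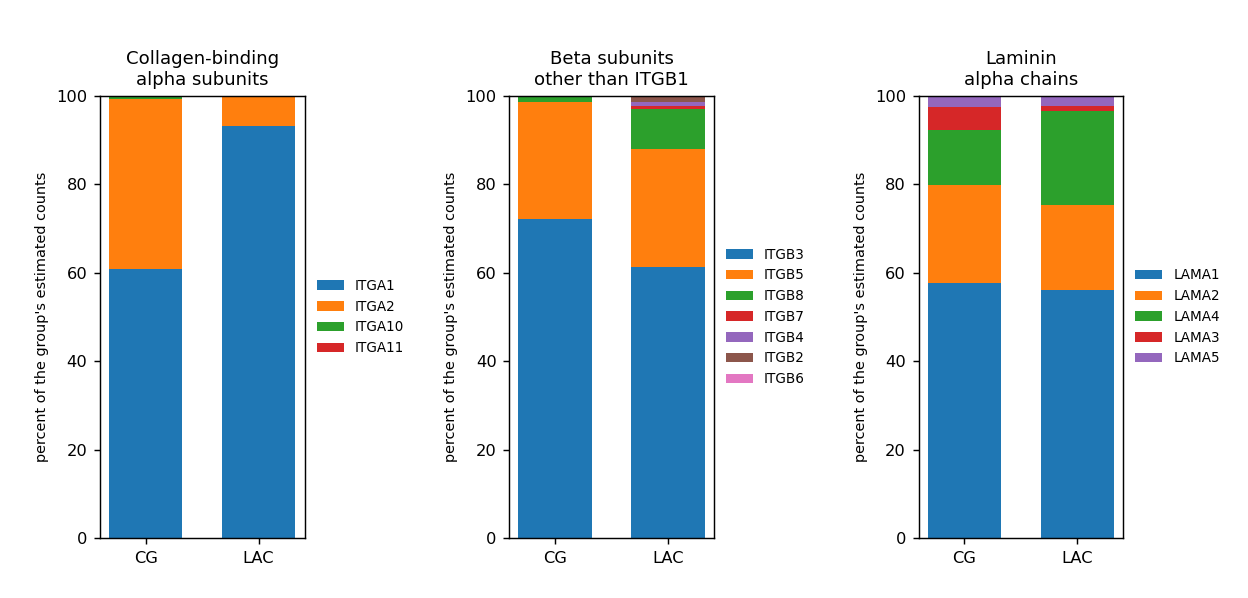
Stacked bars give each gene's percent of the estimated counts of its group, for collagen-binding alpha subunits, beta subunits other than ITGB1, and laminin alpha chains, in 1 library labelled CG and 1 labelled LAC. ITGA2 held 38.3% of its group in CG and 6.62% in LAC, ITGB8 1.14% and 8.89%, and LAMA4 12.4% and 21.1%; counts are not per length, so only the change of a gene between bars is readable.

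Of the laminin alpha chains, LAMA3 was lower and LAMA4 fell just short of the limit for higher. LAMA3, the alpha3 chain of the laminin that anchors epithelia (NC_013677.1, 64874314 to 65128315), had 23.9 CPM in CG against 6.18 CPM in LAC, 3.87-fold lower (3.33 to 4.51), and passed under all 6 alternatives. LAMA4, the alpha4 chain, typical of vessels and mesenchyme (NC_013680.1, 99897333 to 100055033, minus strand), had 57.8 CPM in CG against 111 CPM in LAC, a ratio of 1.92 (1.82 to 2.02). LAMA1, a chain of embryonic and some adult basement membranes, had 269 and 295 CPM, a ratio of 1.10 (1.07 to 1.13). LAMA2, the muscle and nerve chain, had 103 and 101 CPM, a ratio of 0.983 (0.939 to 1.03), and LAMA5, the widespread chain of adult epithelia, had 11.8 and 12.4 CPM. As shares of the alpha chain counts, LAMA4 gained and the chains LAMA3, LAMA2 and LAMA1 held less in LAC: LAMA4 held 12.4% of them in CG (11.95 to 12.91) and 21.1% in LAC (20.5 to 21.7), LAMA3 held 5.14% (4.83 to 5.47) and 1.18% (1.02 to 1.35), LAMA2 held 22.1% (21.5 to 22.7) and 19.3% (18.7 to 19.9), and LAMA1 held 57.8% (57.0 to 58.5) and 56.1% (55.4 to 56.8).

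None of the rows named as beta and gamma chains passed the rule. LAMB2, the beta2 chain, had 178 CPM in CG against 191 CPM in LAC, a ratio of 1.07 (1.04 to 1.11). LAMB1, the beta1 chain, had 23.8 and 36.5 CPM, a ratio of 1.53 (1.41 to 1.67), and its share of the counts of both beta chains was 11.8% in CG (11.1 to 12.6) and 16.1% in LAC (15.2 to 16.9). LAMC1, the gamma1 chain that most laminins contain, was split over sequences: the row of that name spans 6706 bases and had 18.7 and 14.4 CPM, and a row that RefSeq names LAMC1 but the files do not had 103 and 79.7 CPM. Their sum was 121 CPM in CG against 94.1 CPM in LAC, 1.29-fold lower (1.23 to 1.35), a sum chosen after the values were seen. LAMC3, the gamma3 chain, had no count in CG and 64 in LAC, 0.942 CPM, at least 12.4-fold higher against the floor of 6, with an exact 95% lower limit of 9.54. At that level its log2 difference of 0.96 stayed below the limit. A row outside the name rule, described as a partial laminin gamma-3, had no count in CG and 13 in LAC, 0.191 CPM. It was not summed with LAMC3, so the result of LAMC3 under the rule is that of its named row alone. LAMA3 is known to assemble with LAMB3, whose row falls outside the name rule. A row fused from C16H1orf74 and LAMB3 had 38.5 CPM in CG against 28.3 CPM in LAC and did not pass the rule. A row described as laminin beta-4 had no count.

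**Figure D3:**
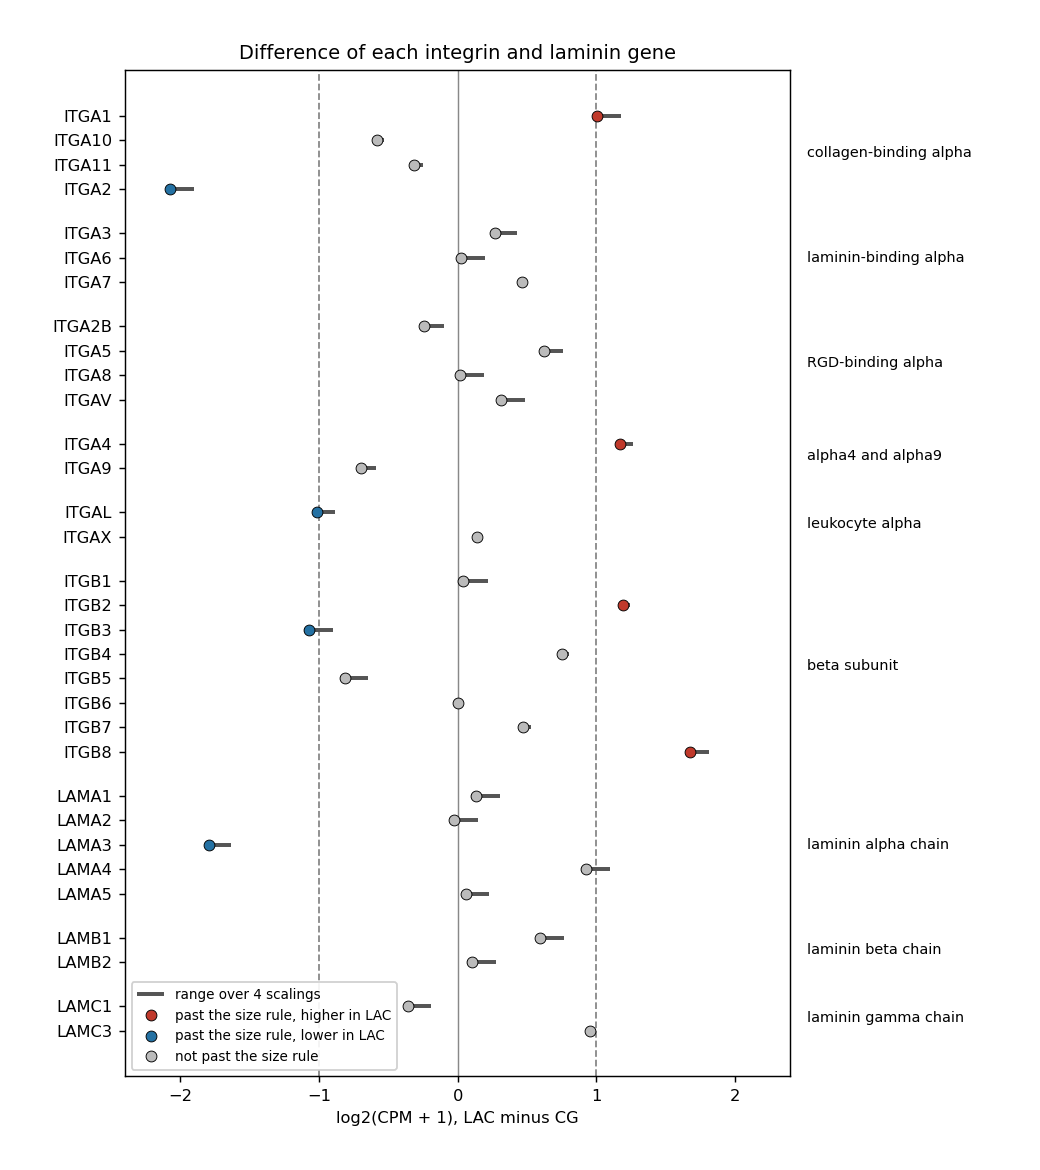
Difference in log2(CPM + 1), LAC minus CG, for the 32 coding members, with the bar showing the range over 4 scalings and dashed lines the size rule of 1. Red points, from ITGA1 at 1.01 to ITGB8 at 1.68, passed as higher, and blue points, from ITGAL at -1.02 to ITGA2 at -2.07, as lower; the bars reach mainly to the right because the scaling on coding rows raises each detected gene.

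The 15 oocyte markers differed by -2.77 to -1.28 on the log2 scale, and the values of ITGA2, at -2.07, and LAMA3, at -1.79, lie inside that range. Those of ITGB3, at -1.07, and ITGAL, at -1.02, lie outside it. Other markers moved in the same libraries. Epithelial markers, 7 of 9 matched, had a summed level of 82.9 CPM in CG against 21.8 CPM in LAC, with CDH1 and EPCAM lower, KRT18 higher and KRT7, KRT19 and PAX8 at 0 in both. Endothelial markers, 10 of 10 matched, had 56.9 and 10.2 CPM, with TEK and FLT1 lower of 9 with enough counts and CDH5 and ESAM at 0 in CG. Without TEK and FLT1 the endothelial sum was 3.66 and 4.93 CPM, and without CDH1 and EPCAM the epithelial sum was 1.07 and 4.03 CPM. These genes were left out because they were lower, which could only move each sum toward LAC. The remaining sums thus show only which genes held the fall. Stromal fibroblast markers, 10 of 10 matched, had 158 and 262 CPM, with COL1A1, COL1A2, COL3A1, DCN and POSTN higher and MFAP4 lower. Smooth muscle and pericyte markers, 8 of 9 matched, had 80.8 and 92.8 CPM, with DES, LMOD1 and PDGFRB higher. The part of these cells in the differences of the integrins and laminins was not tested. Theca markers had 132 and 124 CPM with 0 of 4 past the rule. Neutrophil and mast cell markers had 50.2 and 7.04 CPM with HDC and KIT lower and FCER1A, MPO and S100A9 at 0 in both. Red blood cell markers had 9.98 and 6.72 CPM with SLC4A1 lower. Without HDC and KIT the first of these sums was 0.303 CPM in CG and 0.206 CPM in LAC. Without SLC4A1 the red blood cell sum was 6.30 and 6.44 CPM. HDC, KIT and SLC4A1 were likewise left out because they were lower, so these sums show only which genes held most of each fall.

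The other adhesion genes were read from 5 lists, in which 16 entries passed the rule, 8 higher and 8 lower, where 1.89% of all coding rows were higher and 11.0% lower. The proteins that tie integrins to actin mostly stayed inside the rule: of 39 talin, kindlin and focal adhesion genes with enough counts 0 were higher and 1 was lower, and the median was -0.13. TLN2, a talin, had 514 CPM in CG against 652 CPM in LAC, and FLNA, the actin crosslinker filamin A, had 420 and 614 CPM. The lower gene was FYN, a Src family kinase, with 23.0 and 5.95 CPM, 3.86-fold lower (3.31 to 4.52).

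Of 24 basement membrane partners of laminin, 2 were higher and 2 lower, and the median was 0.09. NID2, a nidogen, which links laminin to collagen IV, had 15.9 CPM in CG against 36.2 CPM in LAC, 2.27-fold higher (2.06 to 2.51). FREM1, a protein of the zone below the basement membrane, had 47.9 and 112 CPM, 2.33-fold higher (2.21 to 2.46). EGFLAM, a ligand of dystroglycan, had 8.20 and 1.65 CPM, 4.97-fold lower (3.73 to 6.72). COL4A1, a collagen IV chain and ligand of the alpha1 subunit, had 476 and 659 CPM, and SPARC, a collagen-binding protein, 1405 and 1387 CPM, and neither passed.

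Among 27 other integrin ligands 5 were higher and 2 lower, and the median was 0.23. POSTN, periostin, had 9.99 CPM in CG against 59.5 CPM in LAC, 5.95-fold higher (5.34 to 6.65), and COL3A1, a fibrillar collagen, 2.03 and 10.8 CPM, 5.29-fold higher (4.15 to 6.83). The others higher were COL1A1, COL1A2 and TNC, the ligand of alpha9 called tenascin C, with 20.4 and 57.2 CPM. POSTN, COL1A1, COL1A2 and COL3A1 are also in the list of fibroblast markers. CDH1, E-cadherin, a ligand of some leukocyte integrins and also in the epithelial list, had 64.1 and 12.8 CPM, and FBLN5, fibulin 5, 11.1 and 4.74 CPM. SPP1, osteopontin, a ligand of alphaV beta3, had 531 and 312 CPM and THBS1, thrombospondin 1, 991 and 1085 CPM, and neither passed.

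Of 20 other matrix receptors 1 was higher and 3 were lower, with a median of -0.10. DDR2, a collagen receptor kinase, had 8.75 CPM in CG against 19.4 CPM in LAC. CD9, a tetraspanin that mouse eggs need to fuse with sperm and that binds integrins, had 11.1 and 3.50 CPM, 3.16-fold lower (2.58 to 3.91), and the tetraspanin CD82 was also lower. DAG1, dystroglycan, a laminin receptor that is no integrin, had 1046 and 977 CPM, and CD44, a hyaluronan receptor, had 1413 and 798 CPM, both inside the rule. The 4 laminin-like short arm genes with enough counts had a median of -0.25 and none passed, with NTN4, netrin 4, which binds laminin gamma chains, at 107 and 92.3 CPM and NTN1, netrin 1, at 30.5 and 31.4 CPM.

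**Figure D4:**
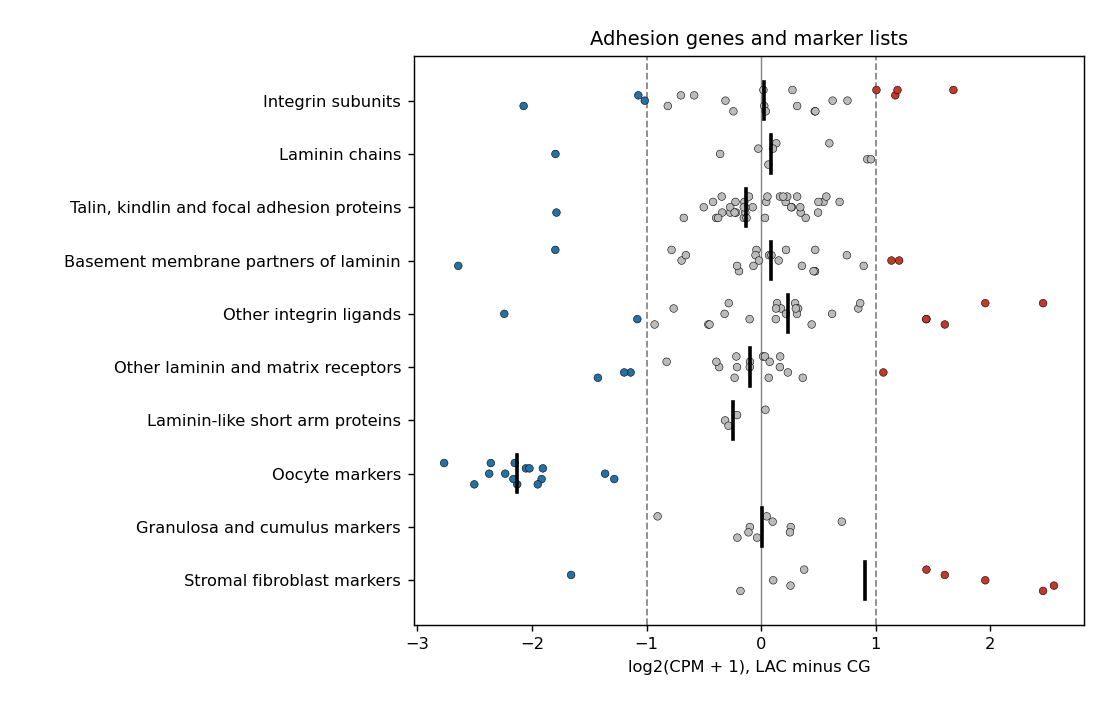
Difference in log2(CPM + 1), LAC minus CG, of every gene with at least 10 counts in the integrin and laminin families, 5 adhesion lists and 3 marker lists, with black bars for medians over genes of at least 0.5 CPM and dashed lines for the size rule of 1. The integrin and laminin medians, 0.03 and 0.08, lie by 0 with points on both sides, and all 15 oocyte markers lie to the left of -1.

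The table of long non-coding transcripts holds values of all 3 libraries, as the authors' deposited FPKM. Of its 15335 transcripts, 6 carry a member's gene name, and here a call needs a log2(FPKM + 1) difference of at least 1 and at least 1 FPKM in the higher library. At LAMA4, a transcript of 209 bases that overlaps exons on the opposite strand had an FPKM of 3.31 in CG, 7.10 in LAC and 7.82 in HAC. Its difference was 0.91 in LAC against CG and 1.03, past the rule, in HAC against CG, and LAMA4 itself differed by 0.93 in LAC. The sources used here do not say whether FPKM was resolved by strand, so reads of LAMA4 cannot be told apart from those of this transcript. At LAMA3, an intronic transcript had 1.38 FPKM in CG, was listed at 0 in LAC and had 0.64 FPKM in HAC, a difference of -1.25 in LAC against CG, past the rule and on the same side as LAMA3.

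The other 4 lie in introns and passed in no comparison. At ITGA1 the transcript on the opposite strand had an FPKM of 0.88 in CG, 2.12 in LAC and 1.75 in HAC, and at LAMA2 the transcript had 1.04, 1.99 and 1.79 FPKM, so that CG was the lowest library at both. LAMA2 itself had 103 and 101 CPM. At ITGA4 the values were 0.98, 0.48 and 1.58 FPKM, with LAC lowest although ITGA4 itself was higher in LAC, and at ITGA8 they were 0.71, 0.66 and 1.54 FPKM. Of the transcripts with enough FPKM, 1 of 4 passed in LAC against CG, 1 of 6 in HAC against CG and 0 of 5 in HAC against LAC, where 26.1%, 17.2% and 29.4% of all long non-coding transcripts passed. A further transcript, 247 bases before ITGB5 on the same strand, carries no gene name and had an FPKM of 3.10 in CG, 1.52 in LAC and 1.19 in HAC, below CG in both ammonia libraries. Another without a gene name, 3270 bases from LAMA1, had an FPKM of 1.5 in CG, 2.85 in LAC and 0.96 in HAC.

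**Figure D5:**
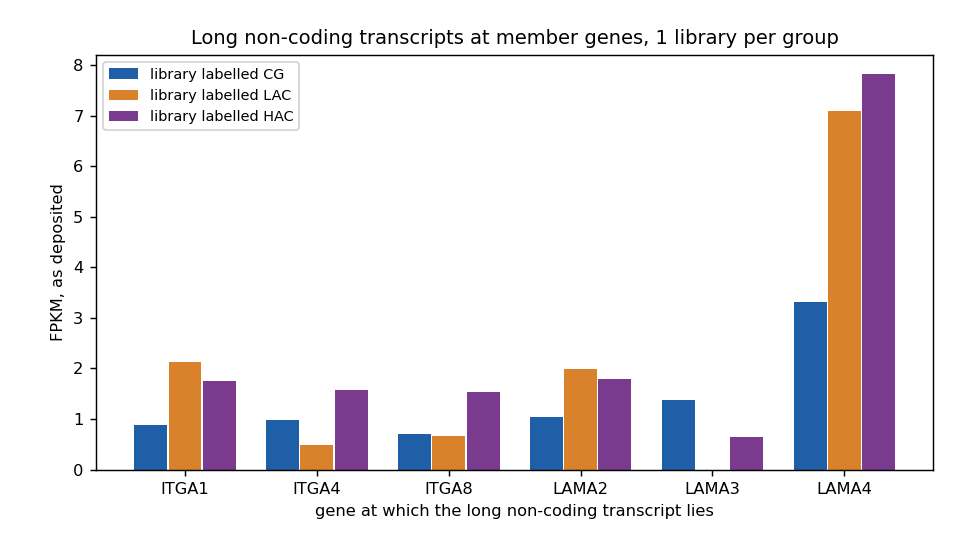
Deposited FPKM of the 6 long non-coding transcripts that carry a member's gene name, in the libraries labelled CG, LAC and HAC, 1 library per group and no error bars. The transcript at LAMA4 had 3.31, 7.10 and 7.82 FPKM, and the transcript at LAMA3 was listed at 0 in LAC.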

How the data were processed

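RNA from 3 libraries of cumulus-oocyte complexes was measured by sequencing. Reads were handled with fastp and HISAT2 on the build OryCun2.0, per the submitters' processing notes. The assembler and the quantifier were not given in the sources used here. The gene table holds the authors' estimated counts and FPKM per locus, per the file headers, and the long non-coding table coverage (a signal of read depth) and FPKM per transcript, as the authors deposited them. At 92.6% of 1-transcript loci in CG an estimated count equalled coverage times length divided by 75, within 5%, and reads have 150 bases. A count thus stands for about 0.5 reads, and intervals were computed on halved counts (Clopper-Pearson). LAC coverage matched the counts of the shared gene table, within 5%, at 93.9% of 8974 1-transcript loci, and HAC coverage at 4.04% of 9183. The copy of the gene table in the HAC file, 2 columns of per-sample values, was not used, and gene-level HAC values were not analysed here.

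Counts were scaled with TMM factors (30% of ratios and 5% of levels trimmed, computed from their formula), and differences are of log2(CPM + 1), which understates the change of low genes. Coding rows are those with a RefSeq messenger RNA. Names come from the files, and those of LOC rows from RefSeq (mOryCun1.1), with no coordinates taken from it. Given in full are members past the size rule and the 12 with the highest mean CPM, and from each list up to 2 genes by level and 2 by difference in either direction. Members, the 5 adhesion lists and the 12 marker lists were chosen with earlier results of these data known. Alternatives covered scaling, pseudocount, unit, count minimum and size rule. The code was tested on simulated data. Python 3.11.15, pandas 2.3.3, numpy 2.4.6, SciPy 1.17.1 and matplotlib 3.10.9 were used. Some genes of the lists and families are counted but not reported here by name. Sums of marker lists without their lower members were added after the values were seen.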

Additional observations from a re-analysis of the deposited data

How the results depend on the processing

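No paired analysis was possible because each group has 1 library, and no library could be left out. Integrin calls numbered 7, and became 12 with a pseudocount of 0.1, 2 with a pseudocount of 5, 4 with the deposited FPKM and 1 with a size rule of 2. The 1 laminin call became 3 with TMM factors from coding rows (LAMA4 and LAMC3 added), 2 with a pseudocount of 0.1 and 0 with a size rule of 2. The 16 calls of the adhesion lists became 7 with a pseudocount of 5, 10 with FPKM and 3 with a size rule of 2. The median over members, 0.0403, was 0.2261 with coding-row factors, 0.0072 with median-of-ratios factors, -0.0221 with FPKM, 0.1033 over members with at least 1 count and -0.0027 as a mean. The 2 calls of long non-coding transcripts became 1 with median-of-ratios factors and 8 with a pseudocount of 0.1. No called member changed sign, while for the adhesion lists and long non-coding transcripts only numbers of calls were compared. The remaining 23 recomputed counts and medians stayed within 1.5 times, or within counting error for medians. For lists (by the same factor) and single members (by their counting interval at a fixed total, which for members at 0 in CG leaves no room upward), 172 recomputed values stayed within bounds and 67 did not. The cause of these shifts was not tested. ITGA4, ITGAL, ITGB2, ITGB8 and LAMC3 averaged under about 6 CPM, low levels beside a pseudocount of 5. Whether they passed the rule changed with the pseudocount. For ITGAL and LAMC3 it also changed with coding-row factors, and for ITGAL and ITGB2 also with FPKM. ITGA4, ITGB2 and LAMC3 also rest on few reads.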
